A study of Mus musculus with 15 samples.

Results

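The 26S proteasome genes of mouse 3T3-L1 cells were described here across fat cell differentiation and in lines labelled as altered in MIGA2, a protein of the outer mitochondrial membrane. Members were all genes with a mouse symbol of the Psma to Psmg series, without the immunoproteasome genes Psmb8, Psmb9 and Psmb10. This gave 47 genes among the 25700 in the count files. Of these, 46 had counts, 45 had enough for a test, Psma8 had no count in any library and Psmb11 had 1 count in all. By role, the 46 genes comprised 7 alpha and 8 beta subunits of the 20S core, 6 ATPase and 11 non-ATPase subunits of the 19S particle, 3 chaperones of 19S assembly, 4 chaperones of 20S assembly and 6 activators or inhibitors. Psmc3ip matches by its symbol alone, since it encodes a cofactor of meiotic recombination.

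RNA sequencing libraries were made from 3T3-L1, a mouse preadipocyte line, in 5 groups of 3. The groups were cells overexpressing MIGA2-GFP at day 6, MIGA2-depleted cells (MIGA2-KO) at day 6, wild-type cells (WT) at day 6, MIGA2-KO cells at day 0 and WT cells at day 0. All day 6 cultures had been kept at confluence and then given dexamethasone, IBMX and insulin, later insulin alone and finally plain serum medium. The 15 libraries include none of MIGA2-GFP cells at day 0. A difference of MIGA2-GFP from WT at day 6 therefore cannot be told apart from one present before induction. The labels do not say how depletion was done or whether a line is 1 clone.

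The level of the Miga2 transcript itself did not follow the labels in every group, which alone does not show that a label is wrong. It was at 166, 155 and 159 CPM (counts scaled to library size with TMM factors) in the 3 MIGA2-GFP libraries, 926, 74.5 and 70.02 CPM in MIGA2-KO at day 6 and 145, 159 and 182 CPM in WT at day 6. At day 0 it was at 17.2, 21.4 and 22.5 CPM in MIGA2-KO and 15.6, 17.8 and 13.6 CPM in WT. MIGA2-GFP did not lie above WT, 1 of 3 MIGA2-KO libraries at day 6 lay above every WT library, and MIGA2-KO was not below WT at day 0. Group names below therefore mean the libraries so labelled, and replicate 1 of MIGA2-KO at day 6 is the library labelled so. Total counts ran from 10748668 to 26003871 per library, and members took 0.380% to 0.681% of them. WT day 0 replicate 1, WT day 6 replicate 1 and MIGA2-KO day 6 replicate 1 stood apart from their groups, so results are given with and without them. The adipocyte marker genes summed to 19399 to 21102 CPM in MIGA2-GFP, 5824 to 9258 CPM in MIGA2-KO and 29565 to 42986 CPM in WT at day 6, against 26.1 to 27.6 CPM in MIGA2-KO and 32.2 to 49.8 CPM in WT at day 0. Ptprc, Epcam, Cdh1 and Myod1, defining markers of blood, epithelial and muscle cells, had no count in any library. Other genes of these lists did, and Cd68 and Csf1r had counts in every library. The epithelial genes Krt8 and Krt18 were called higher over time in WT (log2 fold changes 2.80 and 9.43, edgeR). They were called lower in MIGA2-KO than in WT at day 6 (-1.55 and -3.01, edgeR). Summed markers reached at most 5.42 CPM for macrophages, 1.22 CPM for endothelial cells, 9.94 CPM for epithelia and 55.2 CPM for muscle, the last through Des and Acta1.

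The proteasome degrades proteins tagged with ubiquitin. Its 20S core is a barrel in which alpha rings gate the entrance and beta rings hold the proteolytic sites. The 19S particle caps the barrel: its ATPases unfold and thread the substrate, while non-ATPase subunits bind ubiquitin and remove it. Dedicated chaperones, among them Psmg1 to Psmg4 and Pomp for the core, and Psmd5, Psmd9 and Psmd10 for the 19S base, assist assembly. Transcription of subunit genes is known to be raised together by NFE2L1, an endoplasmic reticulum factor of the CNC-bZIP family that binds antioxidant response elements. In fat cells as elsewhere, the proteasome is a main route for the turnover of short-lived proteins.

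Promoter windows are shown for 6 genes on which the results turn: Psma1 and Psma6, with the largest changes over time in WT, Psmb3 and Psmb5 among the beta subunits, Psmd5, an assembly chaperone with another pattern, and the activator gene Psme1. Each window is 300 bases from RefSeq on GRCm38.p6, 5′ to 3′ on the strand of the gene, with 250 bases before its start site. Capitals mark matches on either strand to TGACNNNGC, the core of the antioxidant response element, the core of the interferon-stimulated response element (GAAA, 2 bases of any kind, GAAA) or CCAAT, the NF-Y box.
Psma1 promoter, chr7:114276067-114276366, minus strand: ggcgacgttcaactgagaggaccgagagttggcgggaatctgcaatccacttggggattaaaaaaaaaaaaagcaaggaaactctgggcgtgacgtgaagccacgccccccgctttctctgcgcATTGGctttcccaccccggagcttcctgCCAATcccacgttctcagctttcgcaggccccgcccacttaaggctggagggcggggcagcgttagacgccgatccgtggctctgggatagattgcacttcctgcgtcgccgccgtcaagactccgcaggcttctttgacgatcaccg
Psma6 promoter, chr12:55383972-55384271, plus strand: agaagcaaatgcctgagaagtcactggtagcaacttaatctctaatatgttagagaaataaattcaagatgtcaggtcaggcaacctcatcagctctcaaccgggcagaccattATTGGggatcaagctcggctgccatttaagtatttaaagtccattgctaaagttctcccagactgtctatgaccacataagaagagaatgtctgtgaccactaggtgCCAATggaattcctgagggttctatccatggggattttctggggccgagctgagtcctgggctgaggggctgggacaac
Psma6 promoter, chr12:55398575-55398874, plus strand: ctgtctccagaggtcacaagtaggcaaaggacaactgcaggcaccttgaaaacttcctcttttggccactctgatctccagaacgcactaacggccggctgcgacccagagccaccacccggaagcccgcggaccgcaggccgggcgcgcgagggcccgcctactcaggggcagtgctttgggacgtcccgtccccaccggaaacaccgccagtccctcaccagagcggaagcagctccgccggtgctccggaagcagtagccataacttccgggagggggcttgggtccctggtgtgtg
Psmb3 promoter, chr11:97703184-97703483, plus strand: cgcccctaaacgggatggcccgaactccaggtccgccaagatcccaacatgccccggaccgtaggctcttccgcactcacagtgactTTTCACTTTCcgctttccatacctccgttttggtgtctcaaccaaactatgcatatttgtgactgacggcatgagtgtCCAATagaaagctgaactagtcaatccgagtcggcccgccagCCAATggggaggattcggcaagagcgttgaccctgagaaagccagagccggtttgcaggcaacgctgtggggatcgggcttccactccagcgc
Psmb5 promoter, chr14:54617946-54618245, minus strand: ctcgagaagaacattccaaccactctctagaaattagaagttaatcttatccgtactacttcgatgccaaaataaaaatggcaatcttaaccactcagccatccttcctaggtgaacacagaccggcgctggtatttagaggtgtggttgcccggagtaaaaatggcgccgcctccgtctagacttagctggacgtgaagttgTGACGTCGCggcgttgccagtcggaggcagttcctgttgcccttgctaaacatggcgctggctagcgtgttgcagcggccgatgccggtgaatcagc
Psmd5 promoter, chr2:34870913-34871212, minus strand: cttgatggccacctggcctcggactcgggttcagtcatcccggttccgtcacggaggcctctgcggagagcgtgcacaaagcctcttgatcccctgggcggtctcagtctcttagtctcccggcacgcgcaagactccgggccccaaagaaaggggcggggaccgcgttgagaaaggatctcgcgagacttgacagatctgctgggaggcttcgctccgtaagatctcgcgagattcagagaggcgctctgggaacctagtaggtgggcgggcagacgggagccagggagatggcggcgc
Psme1 promoter, chr14:55578244-55578543, plus strand: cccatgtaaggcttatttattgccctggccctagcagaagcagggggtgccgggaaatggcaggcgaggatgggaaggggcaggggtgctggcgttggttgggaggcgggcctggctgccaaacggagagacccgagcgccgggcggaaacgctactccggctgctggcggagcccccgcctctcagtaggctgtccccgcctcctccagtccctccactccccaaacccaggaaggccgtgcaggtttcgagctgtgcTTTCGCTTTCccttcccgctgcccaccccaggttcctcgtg

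The antioxidant element letters were in the Psmb5 window, 47 bases before the start site. The interferon element letters were found 163 bases before the start of Psmb3 and 10 bases after that of Psme1, both on the opposite strand. Psma1 and Psmb3 each had a pair of CCAAT boxes, as did the upstream one of the windows of Psma6, while Psmd5 and the downstream Psma6 window held none of the 3 motifs. Over the 42 windows of the 39 members with an entry, TGACNNNGC occurred in 6 (14.3%), against 12.4% of all 32851 windows. The interferon element core occurred in 5 (11.9%) against 3.44% of all windows, and CCAAT in 14 (33.3%) against 37.4%. These are matches of letters and do not show binding.

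Levels per kilobase of exon differed widely between subunits that the particle holds in equal number. In WT at day 6 the 7 alpha subunits ran from 44.6 CPM per kb for Psma3 to 389 CPM per kb for Psma6. The 7 tested beta subunits lay between 85.4 CPM per kb for Psmb7 and 145 CPM per kb for Psmb4. Among 19S subunits the range was 12.96 CPM per kb for Psmd11, a lid subunit, to 132 CPM per kb for the ATPase gene Psmc5. Psmg1 to Psmg4 lay between 7.15 and 31.01 CPM per kb, which overlapped the lower end of the 19S range, and Psmd9 was the lowest tested member at 4.55 CPM per kb. The length is that of all annotated exons of a gene, so it overstates the transcript where exons are unused.

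Summed over members on TMM-scaled counts, expression was highest in WT at day 6. The 45 tested genes summed to 4697, 4753 and 4608 CPM in MIGA2-GFP, 4198, 4086 and 4087 CPM in MIGA2-KO and 6209, 8062 and 7726 CPM in WT at day 6. At day 0 the sums were 3672, 3675 and 3685 CPM in MIGA2-KO and 5617, 3906 and 3969 CPM in WT. All WT day 6 libraries lay above all others, and WT day 0 replicate 1 lay above every library of MIGA2-KO and MIGA2-GFP. This order rests on the TMM factors, such as 0.8955 for WT day 6 replicate 1 and 1.08 for WT day 0 replicate 1. As a share of total counts, members took 0.556% in the former and 0.607% in the latter, so the order of these libraries turned. In bulk RNA, fewer cells expressing a gene and less of its RNA per cell cannot be told apart.

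Summed levels of the 20S core and of the 19S particle both were highest in WT at day 6. The 14 core genes summed to 2091, 2123 and 2071 CPM in MIGA2-GFP, 1758, 1645 and 1649 CPM in MIGA2-KO and 2958, 4016 and 3847 CPM in WT at day 6, against 1389.6, 1388 and 1386 CPM in MIGA2-KO and 2417, 1508 and 1519.7 CPM in WT at day 0. The 17 genes of the 19S particle summed to 1913, 1934 and 1855 CPM in MIGA2-GFP, 1819, 1816 and 1821 CPM in MIGA2-KO and 2489.6, 3080.3 and 2983 CPM in WT at day 6, and to 1662, 1675 and 1683 CPM in MIGA2-KO and 2388, 1809 and 1839.9 CPM in WT at day 0. The ratio of group means of day 6 to day 0 was 1.21 in MIGA2-KO and 1.99 in WT for the core. For the 19S particle it was 1.09 in MIGA2-KO and 1.42 in WT. At day 6 MIGA2-KO stood at 0.467 of the WT mean for the core and 0.638 for the 19S particle, and MIGA2-GFP stood at 0.581 for the core and 0.667 for the 19S particle. The difference between the core and the 19S particle was not tested. These sums and ratios also rest on TMM scaling, with the limit given for the sum over members.

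**Figure D1:**
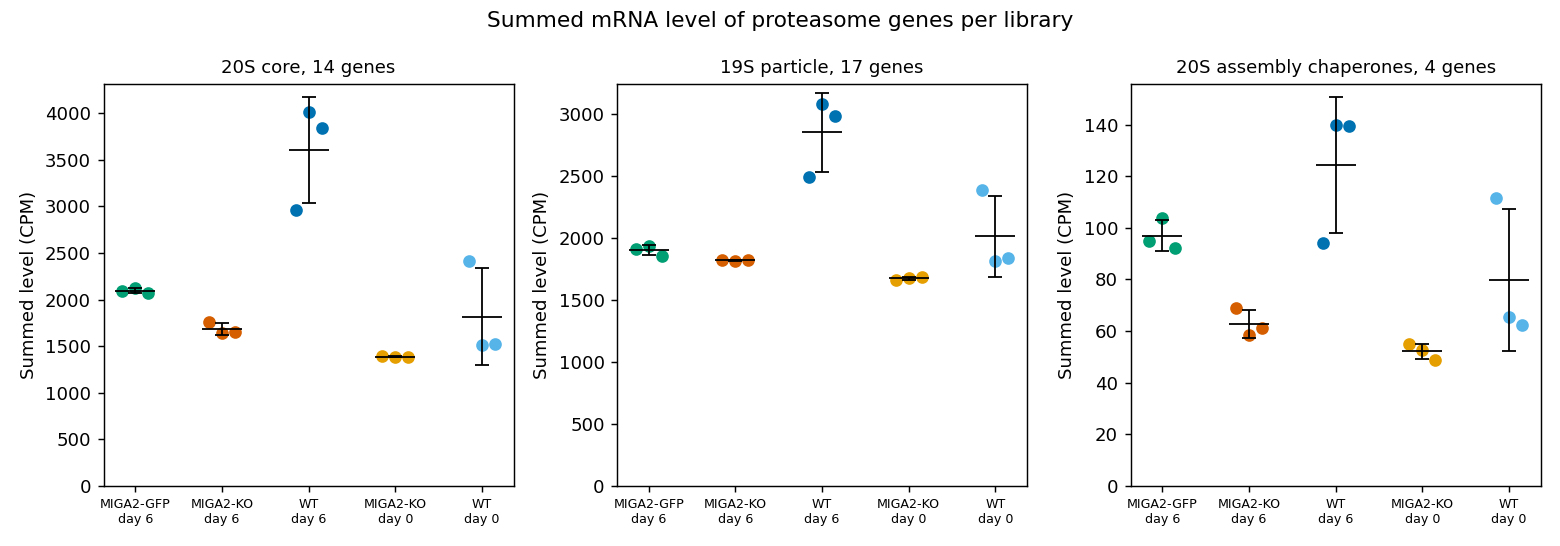
Summed level in CPM of the 14 genes of the 20S core, the 17 of the 19S particle and the 4 chaperones of 20S assembly, in each library (points), with group means and SD (bars, n = 3). For the core and the 19S particle the 3 WT day 6 libraries lie above all others on this TMM-scaled level. WT day 0 replicate 1 lies above replicates 2 and 3 of its group.

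Proteasome genes as a group were higher after differentiation of WT cells. Of the 45 tested members, 33 were higher at day 6 than at day 0 and 1 was lower, by edgeR's quasi-likelihood test at an adjusted p under 0.05. Over all 12279 genes tested, 31.7% were higher and 33.1% lower, 64.8% in either direction. The median log2 fold change was 0.61 over members and -0.04 over all genes. All libraries of day 6 lay above all of day 0 for 21 members and below for 1, against 28.7% and 28.9% of all genes. The transcripts of members are shorter than most, with a median length of 1819 bases against 3386 over all genes tested, and of similar GC content, 49.7% in both.

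All 7 alpha subunits rose in WT. Psma1 (GRCm38 chr7:114264606-114276118, minus strand) had 430.2, 462 and 402 CPM at day 6 and 87.1, 64.8 and 73.2 CPM at day 0. The groups were far apart, with a log2 fold change of 2.52 ± 0.16 (SE, adjusted p = 2.82e-09, edgeR). Psma6 (chr12:55384222-55418454, plus strand) had 383, 531 and 527 CPM at day 6 and 162, 94.8 and 104 CPM at day 0, again without overlap, and its log2 fold change was 2.00 ± 0.17 (adjusted p = 1.24e-07, edgeR). Psma3 reached 160.05, 186 and 175 CPM at day 6, against 105, 73.6 and 81.1 CPM at day 0, a log2 fold change of 1.01 ± 0.12 (adjusted p = 2.83e-06, edgeR). The other 4 alpha genes had log2 fold changes between 0.48 for Psma4 and 1.27 for Psma5.

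All 7 tested beta subunits also passed the test, but in 4 of them the libraries of the days overlapped. Psmb5 (chr14:54614119-54618022, minus strand), the chymotrypsin-like catalytic subunit, had 56.2, 83.9 and 103 CPM at day 6 and 49.3, 33.5 and 23.2 CPM at day 0. Every day 6 library was higher, and the log2 fold change was 1.20 ± 0.23 (adjusted p = 0.000337, edgeR). Psmb7, the trypsin-like subunit, had 238, 323 and 315 CPM at day 6 and 221, 139.8 and 144 CPM at day 0, a log2 fold change of 0.79 ± 0.16 (adjusted p = 0.000412, edgeR). Psmb6, the caspase-like subunit, had 152, 222 and 234 CPM at day 6 and 196, 115 and 107 CPM at day 0. Here replicate 1 of day 0 lay above replicate 1 of day 6, and the log2 fold change of 0.54 ± 0.19 (adjusted p = 0.0242, edgeR) became -0.11 once GC content and transcript length were corrected for. That correction left 3 of the 7 beta genes called higher, and 26 of the 45 members. The median was then 0.31 over members and -0.02 over all genes, and the share of all genes called is not given. Near-identical copies, with which reads may be exchanged, are annotated for 12 members, among them Psma3, Psma5, Psmb3, Psmb5, Psmd1 and Psme1.

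In the 19S particle, all 11 non-ATPase subunits and 3 of the 6 ATPases were higher in WT at day 6. Psmc5 had the largest change among the ATPases, with 152, 207 and 193 CPM at day 6 and 128, 92.2 and 90.7 CPM at day 0. Its groups did not overlap, and the log2 fold change was 0.83 ± 0.13 (adjusted p = 7.03e-05, edgeR). Psmc1 and Psmc4 were the others called, at 0.52 and 0.56, while Psmc2, Psmc3 and Psmc6 had log2 fold changes of 0.26, -0.18 and 0.07 and did not pass. Psmd13, a lid subunit, had 90.5, 133 and 139 CPM at day 6 and 84.2, 53.5 and 53.3 CPM at day 0, a log2 fold change of 0.92 ± 0.19 (adjusted p = 0.000668, edgeR) that was the largest of the non-ATPase genes. Among the non-ATPase genes Psmd2, which forms part of the base, changed least, by 0.18 ± 0.08 (adjusted p = 0.0497, edgeR).

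Of the assembly chaperones, 2 were called in WT over time. None of the 3 chaperones of 19S assembly passed the edgeR test in WT, either adjusted or at an unadjusted p under 0.05, and DESeq2 called 0. Other settings did call some: Psmd5 and Psmd10 were lower on plain library totals, Psmd10 was lower under the GC content and length correction and without WT day 6 replicate 2, and Psmd9 was higher without the 3 libraries that stood apart. Psmd10, known as gankyrin, had 23.9, 36.5 and 27.4 CPM at day 6 and 41.9, 30.1 and 31.4 CPM at day 0, overlapping values with a log2 fold change of -0.24 ± 0.15 (adjusted p = 0.187, edgeR). Of the 4 chaperones of 20S assembly, Psmg1 and Psmg2, which form a dimer, passed. Psmg1 had 34.2, 49.8 and 41.1 CPM at day 6 and 29.9, 18.3 and 17.8 CPM at day 0, a log2 fold change of 0.93 ± 0.19 (adjusted p = 0.000522, edgeR), and Psmg2 changed by 0.77 ± 0.22 (adjusted p = 0.00642, edgeR). For this and every other alternative run here and below, the share of all genes called is not given. A changed count of members therefore need not be particular to members. Without the 3 libraries that stood apart, 40 of 45 members were higher in WT at day 6 and 1 was lower. The median was then 1.00 over members and -0.02 over all genes. On plain library totals, which shifted the median of all genes to -0.43, 18 members were higher and 7 lower and their median was 0.23.

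**Figure D2:**
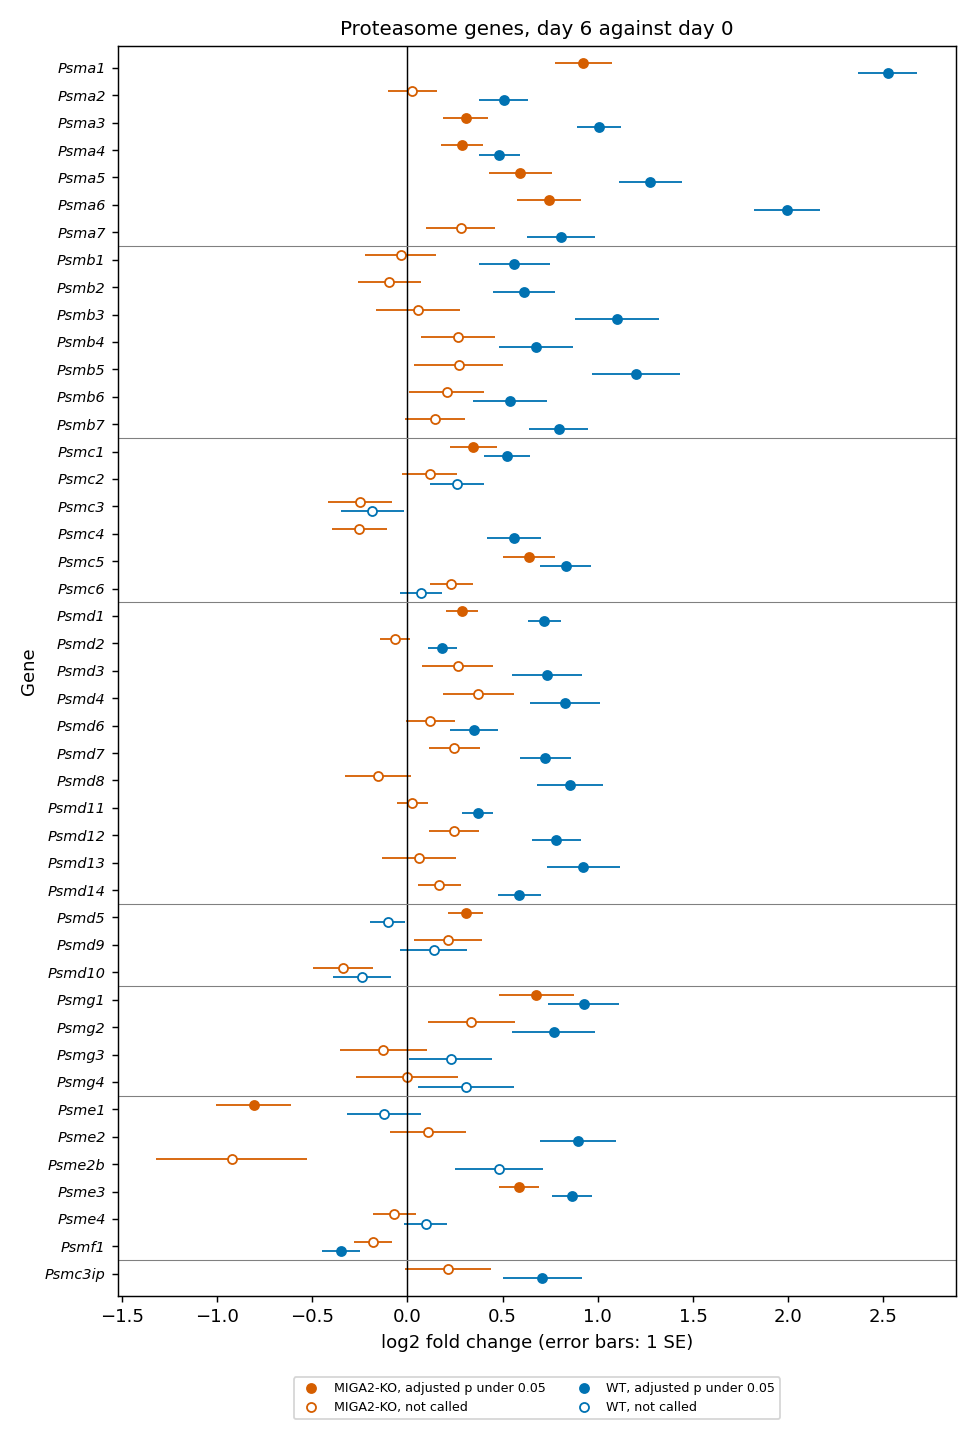
Log2 fold change of each tested member from day 0 to day 6 (x axis, bars 1 SE) in MIGA2-KO and WT, by role from alpha subunits at the top to Psmc3ip. Filled points passed an adjusted p under 0.05 (edgeR), 12 in MIGA2-KO and 34 in WT, and Psma1 and Psma6 lie farthest right in both lines.

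In MIGA2-KO fewer proteasome genes were called over time. Of the 45 members, 11 were higher at day 6 than at day 0 and 1 was lower (edgeR). Of all genes, 23.3% were higher and 21% lower, 44.3% in either direction. In this fit of all 15 libraries the share of members called higher was thus close to that background. With only the MIGA2-KO groups in the fit, more members were called in each direction, as given under the dependence on processing. The median was 0.21 over members and 0.02 over all genes. Day 6 libraries were all above day 0 for 25 members and all below for 6, against 33.5% and 32.2% of all genes. When replicate 1 of MIGA2-KO day 6, which held the most Miga2, was left out, 8 members were higher and 1 lower. The count of higher members was 5 without MIGA2-KO day 0 replicate 2, 7 without day 6 replicate 2 and 6 without day 6 replicate 3. Without all 3 libraries that stood apart, 22 were higher and 5 lower, while the median over members stayed at 0.21. The share of all genes called in that run is not given here.

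The alpha genes accounted for 5 of the 11 higher members. Psma1 had 169, 109.6 and 115 CPM at day 6 and 69.7, 71.6 and 66.4 CPM at day 0 in MIGA2-KO. Replicate 1 of day 6 was the highest, no values overlapped, and the log2 fold change was 0.92 ± 0.15 (adjusted p = 0.000158, edgeR), or 0.70 without that library. Psma6 had 201, 190.2 and 201 CPM at day 6 and 117, 120.4 and 115 CPM at day 0, a log2 fold change of 0.74 ± 0.17 (adjusted p = 0.00237, edgeR). Psmc5 was at 107, 112 and 115 CPM at day 6 and 67.3, 73.2 and 73.6 CPM at day 0, a log2 fold change of 0.64 ± 0.14 (adjusted p = 0.00136, edgeR). Psmg1 had 20.6, 17.2 and 21.1 CPM at day 6 and 13.001, 11.2 and 12.6 CPM at day 0 (0.68 ± 0.20, adjusted p = 0.0118, edgeR). The other members called higher were Psma3, Psma4, Psma5, Psmc1, Psmd1, Psmd5 and Psme3, with log2 fold changes between 0.29 for Psma4 and 0.59 for Psma5. Psmd10 had 21.996, 22.8 and 22.6 CPM at day 6 and 28.2, 27.1 and 30.1 CPM at day 0, all lower at day 6, but did not pass (-0.34 ± 0.16, adjusted p = 0.0928, edgeR).

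Beta subunits did not pass the test in MIGA2-KO over time. None of 7 was called by edgeR, at an adjusted or an unadjusted p under 0.05, or by DESeq2. Psmb5 had 35.6, 35.1 and 30.9 CPM at day 6 and 28.4, 26.99 and 28.95 CPM at day 0, with all day 6 values above and a log2 fold change of 0.27 ± 0.23 (adjusted p = 0.383, edgeR). Psmb6 had 101, 98.2 and 103 CPM at day 6 and 87.8, 87.5 and 86.4 CPM at day 0 (log2 fold change 0.21 ± 0.20), and Psmb7 had 129.7, 121 and 123 CPM at day 6 and 111, 111 and 116 CPM at day 0 (0.14 ± 0.16). These 3 catalytic genes lay above their day 0 libraries in every day 6 library without passing. The model pools its spread over all 15 libraries, and these genes varied more in WT. For Psmb6 the SD was 2.36 CPM at day 6 and 0.748 CPM at day 0 in MIGA2-KO. In WT it was 44.1 CPM at day 6 and 49.1 CPM at day 0. Without the 3 libraries that stood apart, 3 of the 7 beta genes were higher. Of the 11 non-ATPase genes, Psmd1, a scaffold of the base, was higher, at 0.29 ± 0.09 (adjusted p = 0.0142, edgeR), and Psmd4, a ubiquitin receptor, had the largest estimate without passing. It had 104, 106 and 110.1 CPM at day 6 and 84.4, 81.7 and 80.8 CPM at day 0 (0.37 ± 0.18, adjusted p = 0.116, edgeR).

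The change over time was tested for a difference between the lines. It was smaller, or of opposite sign, in MIGA2-KO than in WT for 15 of 45 members and larger for 1 (edgeR), beside 13.6% and 13.7% of all genes (27.2% in either direction). The median difference was -0.43 on the log2 scale over members and 0.02 over all genes. By role these were 4 of 7 alpha, 4 of 7 beta, 1 of 6 ATPase and 5 of 11 non-ATPase genes, and Psme2b. For Psma1 the difference was -1.60 ± 0.21 (adjusted p = 8.16e-05, edgeR), for Psma6 -1.25 ± 0.24 (adjusted p = 0.00147, edgeR) and for Psma3 -0.70 ± 0.17 (adjusted p = 0.00622, edgeR). Psmd8 (chr7:29174188-29180701, minus strand), a lid subunit, differed by -1.01 ± 0.24 (adjusted p = 0.00719, edgeR). It had 104, 70.8 and 70.98 CPM at day 6 and 92.2, 89.998 and 90.9 CPM at day 0 in MIGA2-KO, against 159.6, 210.3 and 226 CPM at day 6 and 138, 94.7 and 97.4 CPM at day 0 in WT. Psma1, Psma6 and Psmd8 passed in every alternative run, and the other 12 lost the call in at least 1.

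The exception was Psmd5, which acts in assembly of the 19S base. It had 69.99, 68.3 and 73.5 CPM at day 6 and 58.1, 55.3 and 57.8 CPM at day 0 in MIGA2-KO, with no overlap (log2 fold change 0.31 ± 0.09, adjusted p = 0.0143, edgeR). In WT it had 62.7, 65.5 and 65.8 CPM at day 6 and 75.97, 63.2 and 69.3 CPM at day 0, with overlap (log2 fold change -0.10 ± 0.09, adjusted p = 0.334, edgeR). The difference between the lines was 0.41 ± 0.13 (adjusted p = 0.0304, edgeR), and it did not pass under the GC content and length correction. The count of members with a smaller change in MIGA2-KO depended on single libraries. It was 32 without WT day 0 replicate 1, 24 without WT day 6 replicate 1 and 11 without replicate 1 of MIGA2-KO day 6. It was 6 to 8 when any other library of these groups was left out. On plain library totals 3 were below and 3 above. The shares of all genes called in these runs are not given here.

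At day 0, before induction, fewer proteasome genes differed between the lines, and nearly all that did were lower in MIGA2-KO. Of 45 members, 14 were lower in MIGA2-KO and 1, Psmf1, was higher (edgeR), beside 17.7% and 16.1% of all genes (33.9% in either direction). On plain library totals 25 were lower and 0 higher, and with only the groups compared in the fit 6 were lower. The median was -0.28 over members and -0.03 over all genes. All MIGA2-KO libraries lay below all WT libraries for 22 members and above for 1, against 25.6% and 25.4% of all genes. Without WT day 0 replicate 1, the library with the highest proteasome sum of its group, 9 members were lower. The median over members was then -0.11, against -0.37 without WT replicate 2 and -0.35 without WT replicate 3. Leaving out 1 of the 3 MIGA2-KO day 0 libraries gave 8, 7 or 9 lower members, and 0 higher without replicate 2 or 3. Their medians were -0.27, -0.26 and -0.29. Without all 3 libraries that stood apart 17 were lower and 5 higher, with a median of -0.11. Under the GC content and length correction 12 were lower and 5 higher, with a median of -0.10. The size of the day 0 difference thus depended on WT day 0 replicate 1 and on this correction.

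Beta subunits were the largest group among these, with 4 of 7 called. Psmb2 had 52.4, 52.5 and 54.2 CPM in MIGA2-KO and 114, 72.8 and 70.01 CPM in WT at day 0, a log2 fold change of -0.69 ± 0.17 (adjusted p = 0.00591, edgeR). Of the catalytic genes, Psmb6 differed by -0.68 ± 0.20 (adjusted p = 0.0164, edgeR) and Psmb7 by -0.58 ± 0.16 (adjusted p = 0.0116, edgeR), while Psmb5 did not pass, at -0.33 ± 0.23 (adjusted p = 0.291, edgeR). Psmd7, a lid subunit that pairs with the deubiquitinase Psmd14, had 75.998, 73.4 and 76.3 CPM in MIGA2-KO and 155, 111 and 107 CPM in WT, without overlap (log2 fold change -0.73 ± 0.14, adjusted p = 0.0012, edgeR). Psmg1 had 13.001, 11.2 and 12.6 CPM in MIGA2-KO and 29.9, 18.3 and 17.8 CPM in WT, also apart, with a log2 fold change of -0.84 ± 0.19 (adjusted p = 0.0048, edgeR). Psma1 and Psma6, which changed most over time, did not pass at day 0, at -0.11 ± 0.15 and -0.03 ± 0.17. Psmc3ip was lower in MIGA2-KO, with 8.35, 6.50 and 8.03 CPM against 19.1, 11.6 and 13.01 CPM in WT (log2 fold change -0.93 ± 0.22, adjusted p = 0.0048, edgeR).

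At day 6 nearly all proteasome genes were lower in MIGA2-KO than in WT. Of 45 members, 40 were lower and 1 was higher (edgeR), beside 31.5% and 29.2% of all genes (60.7% in either direction), and the median was -0.78 over members and -0.01 over all genes. All MIGA2-KO libraries lay below all WT libraries for 39 members and above for 2, against 31.7% and 30.2% of all genes. The lower genes comprised all 7 alpha, all 7 tested beta, all 11 non-ATPase and 4 of 6 ATPase genes, all 4 chaperones of 20S assembly, 1 of 3 chaperones of 19S assembly, 5 of 6 activators or inhibitors, and Psmc3ip. Adipocyte markers were lower in the same libraries, at 5824 to 9258 CPM in MIGA2-KO and 29565 to 42986 CPM in WT. Preadipocyte markers summed to 787 to 987 CPM in MIGA2-KO and 689 to 752 CPM in WT, but did not move together. Pdgfra and Pdgfrb were called higher in MIGA2-KO (log2 fold changes 1.13 and 1.65, edgeR) and Dlk1 lower (-0.87). Thy1 and Cd34 were not called. The part of these cell states in the result was not tested.

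The core subunits Psmb3 and Psma1 showed the widest gaps of the structural subunits. Psmb3, a non-catalytic beta subunit, had 68.2, 66.4 and 62.3 CPM in MIGA2-KO and 154, 265 and 246 CPM in WT at day 6, a log2 fold change of -1.76 ± 0.23 (adjusted p = 1.71e-05, edgeR). Psma1, with the day 6 values given above, differed by -1.72 ± 0.15 (adjusted p = 5.53e-07, edgeR). For Psmb3 the MIGA2-KO libraries were close together and WT replicate 1 was the lowest WT library. Among catalytic genes, Psmb5 had 35.6, 35.1 and 30.9 CPM in MIGA2-KO and 56.2, 83.9 and 103 CPM in WT (-1.26 ± 0.23, adjusted p = 0.000362, edgeR), and Psmb7 had 129.7, 121 and 123 CPM in MIGA2-KO and 238, 323 and 315 CPM in WT (-1.23 ± 0.16, adjusted p = 1.71e-05, edgeR). Psmb6 differed by -1.01 ± 0.20 (adjusted p = 0.000529, edgeR).

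In the 19S particle, Psmd7 had 97.7, 89.2 and 80.9 CPM in MIGA2-KO and 178, 218 and 221 CPM in WT at day 6, a log2 fold change of -1.20 ± 0.14 (adjusted p = 5.53e-06, edgeR). Psmd8 was lower by the largest amount of the non-ATPase genes, -1.28 ± 0.17 (adjusted p = 2.95e-05, edgeR). Its library labelled MIGA2-KO replicate 1, at the upper end of the group, still lay below every WT library. Psmc4 led the ATPases, with 59.2, 57.6 and 51.99 CPM in MIGA2-KO and 107, 138 and 129 CPM in WT (-1.14 ± 0.14, adjusted p = 1.42e-05, edgeR). Psmc3 and Psmc6 did not pass, at -0.24 ± 0.17 and 0.13 ± 0.11. Psmg2 had 25.6, 18.7 and 19.9 CPM in MIGA2-KO and 34.2, 49.03 and 53.9 CPM in WT (-1.09 ± 0.22, adjusted p = 0.000794, edgeR), and Psmd10 was the chaperone of 19S assembly that passed, with 21.996, 22.8 and 22.6 CPM in MIGA2-KO and 23.9, 36.5 and 27.4 CPM in WT (-0.38 ± 0.16, adjusted p = 0.0488, edgeR). The Psmd10 call was lost with DESeq2, on plain totals, under the GC content and length correction, without a filter, with only the groups compared, and without any single library of either group other than WT day 6 replicate 1.

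Of the 40 lower members, 25 were called so in every alternative. When replicate 1 of MIGA2-KO day 6 was left out, 36 members were lower, and without all 3 libraries that stood apart 40 were lower and 2 higher. Correction for GC content and length left 26 lower and 3 higher, with a median of -0.34 over members. On plain library totals 32 were lower and 3 higher. The median there was -0.52 over members and 0.24 over all genes. The shares of all genes called in these runs are not given here.

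The MIGA2-GFP libraries also had less proteasome mRNA than WT at day 6. Of 45 members, 32 were lower and 0 higher (edgeR), beside 18.9% and 16.5% of all genes (35.3% in either direction). All 45 log2 fold changes were negative, so none was higher at an unadjusted p either, and DESeq2 called 0 higher. The median was -0.67 over members and 0.00 over all genes. All MIGA2-GFP libraries lay below all WT libraries for 34 members and above for 0, against 25.1% and 25.2% of all genes. This comparison uses the same 3 WT libraries as that of MIGA2-KO at day 6, so the comparisons are not independent. The adipocyte markers summed to 19399 to 21102 CPM in MIGA2-GFP and 29565 to 42986 CPM in WT. Of these 6 genes, Adipoq, Fabp4 and Cidec were called lower and Lipe and Cfd were not called. Plin1 was above WT in every library without passing, at 884, 829 and 874 CPM in MIGA2-GFP and 528, 501 and 642 CPM in WT (0.63 ± 0.24, adjusted p = 0.0562, edgeR). The preadipocyte markers summed to 514 to 519.8 CPM in MIGA2-GFP and 689 to 752 CPM in WT. They too went both ways: the MIGA2-GFP means of Pdgfra and Pdgfrb lay above WT, and those of Dlk1, Thy1 and Cd34 below. The part of either list in the result was not tested.

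Psmd14, the deubiquitinase of the lid, had 59.1, 62.5 and 54.3 CPM in MIGA2-GFP and 117, 136 and 128 CPM in WT, a log2 fold change of -1.11 ± 0.11 (adjusted p = 1.55e-05, edgeR). Psmd1 had 161, 169 and 161 CPM in MIGA2-GFP and 279.8, 289.6 and 268 CPM in WT (-0.77 ± 0.09, adjusted p = 3.26e-05, edgeR). In both genes the MIGA2-GFP libraries were close together and all lay below WT. Psma2 had 103, 112 and 106 CPM in MIGA2-GFP and 182, 237 and 209 CPM in WT (-0.97 ± 0.13, adjusted p = 0.000115, edgeR), and Psmc5 had 104, 102 and 103 CPM in MIGA2-GFP and 152, 207 and 193 CPM in WT (-0.84 ± 0.13, adjusted p = 0.000429, edgeR). Psmb7 led the beta genes, with 126, 133 and 125 CPM in MIGA2-GFP and 238, 323 and 315 CPM in WT (-1.19 ± 0.16, adjusted p = 0.000107, edgeR). All 7 alpha, 6 of 7 beta, all 6 ATPase, 8 of 11 non-ATPase and 2 of 3 genes of 19S assembly were lower.

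Psmb6 had 124, 119 and 109.96 CPM in MIGA2-GFP, all below WT (-0.78 ± 0.20, adjusted p = 0.00743, edgeR). Psmd10 had 18.96, 18.6 and 20.4 CPM in MIGA2-GFP, also below every WT library (-0.60 ± 0.16, adjusted p = 0.00985, edgeR). Psmb5 was the beta gene that did not pass, with 65.8, 63.6 and 60.3 CPM in MIGA2-GFP and 56.2, 83.9 and 103 CPM in WT, which overlapped through WT replicate 1 (-0.36 ± 0.23, adjusted p = 0.232, edgeR). None of the 4 chaperones of 20S assembly passed, by edgeR or DESeq2, and 1 had an unadjusted p under 0.05. Psmg1 had 28.9, 32.5 and 30.1 CPM in MIGA2-GFP and 34.2, 49.8 and 41.1 CPM in WT, a log2 fold change of -0.45 ± 0.19 (adjusted p = 0.0761, edgeR). Without WT day 6 replicate 1, 38 members were lower, and without all 3 libraries that stood apart 43 were, including 3 of these 4 chaperones. Under the GC content and length correction 28 were lower and 1 higher, with a median of -0.34 over members. On plain library totals 24 were lower. The shares of all genes called in these runs are not given here. Of the 32 lower members, 23 were called so in every alternative.

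**Figure D3:**
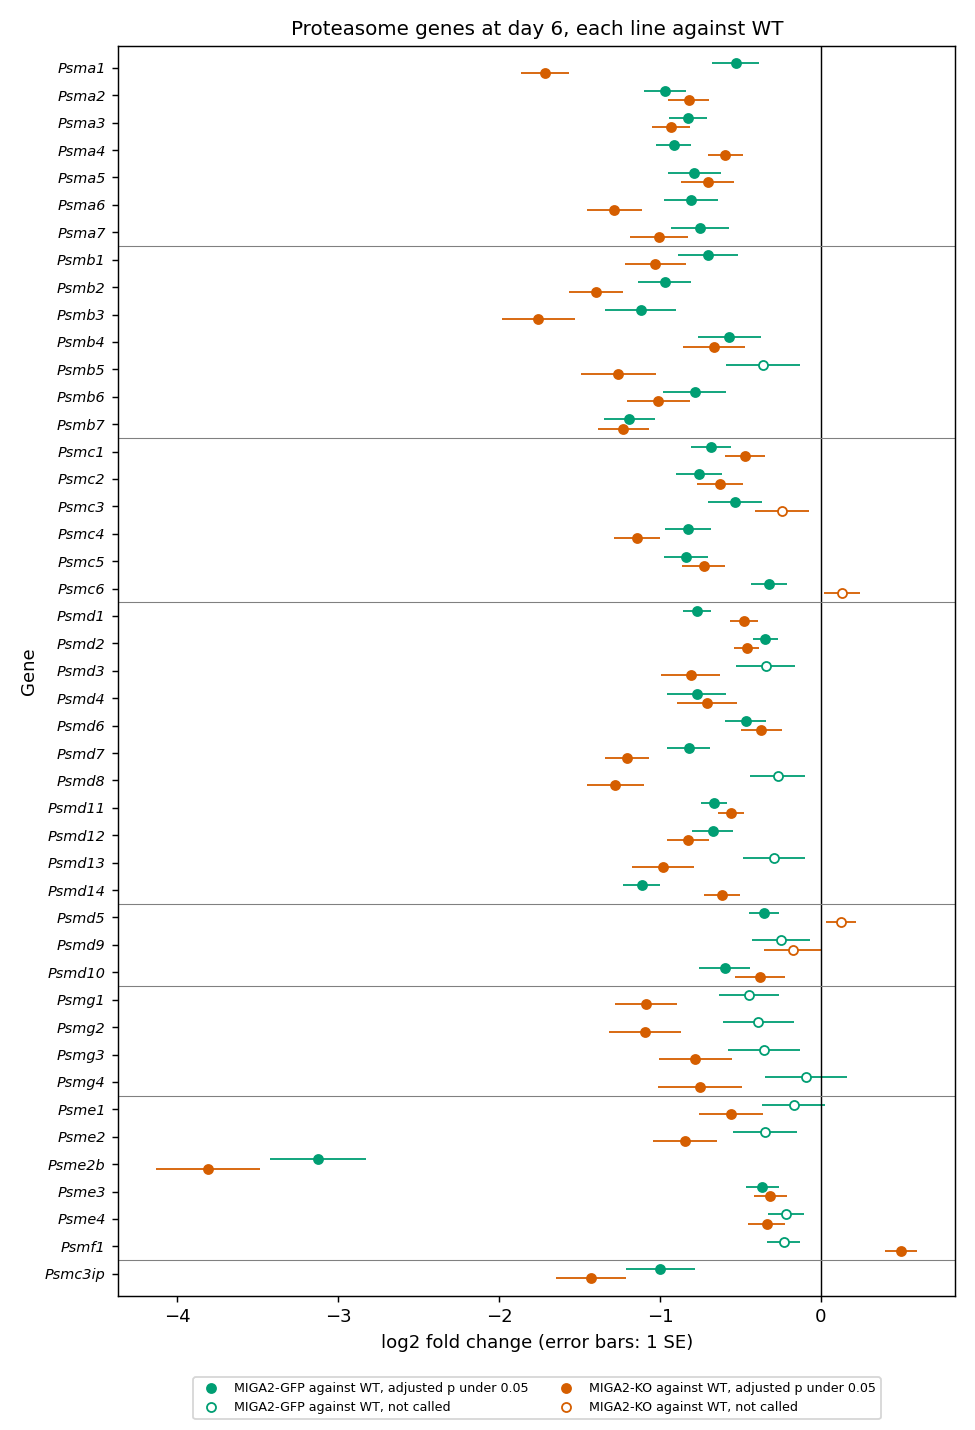
Log2 fold change against WT at day 6 of each tested member (x axis, bars 1 SE) in MIGA2-GFP and MIGA2-KO, by role from top to bottom. Filled points passed an adjusted p under 0.05 (edgeR), 32 in MIGA2-GFP and 41 in MIGA2-KO, and Psmf1 is the one filled point right of 0.

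**Figure D4:**
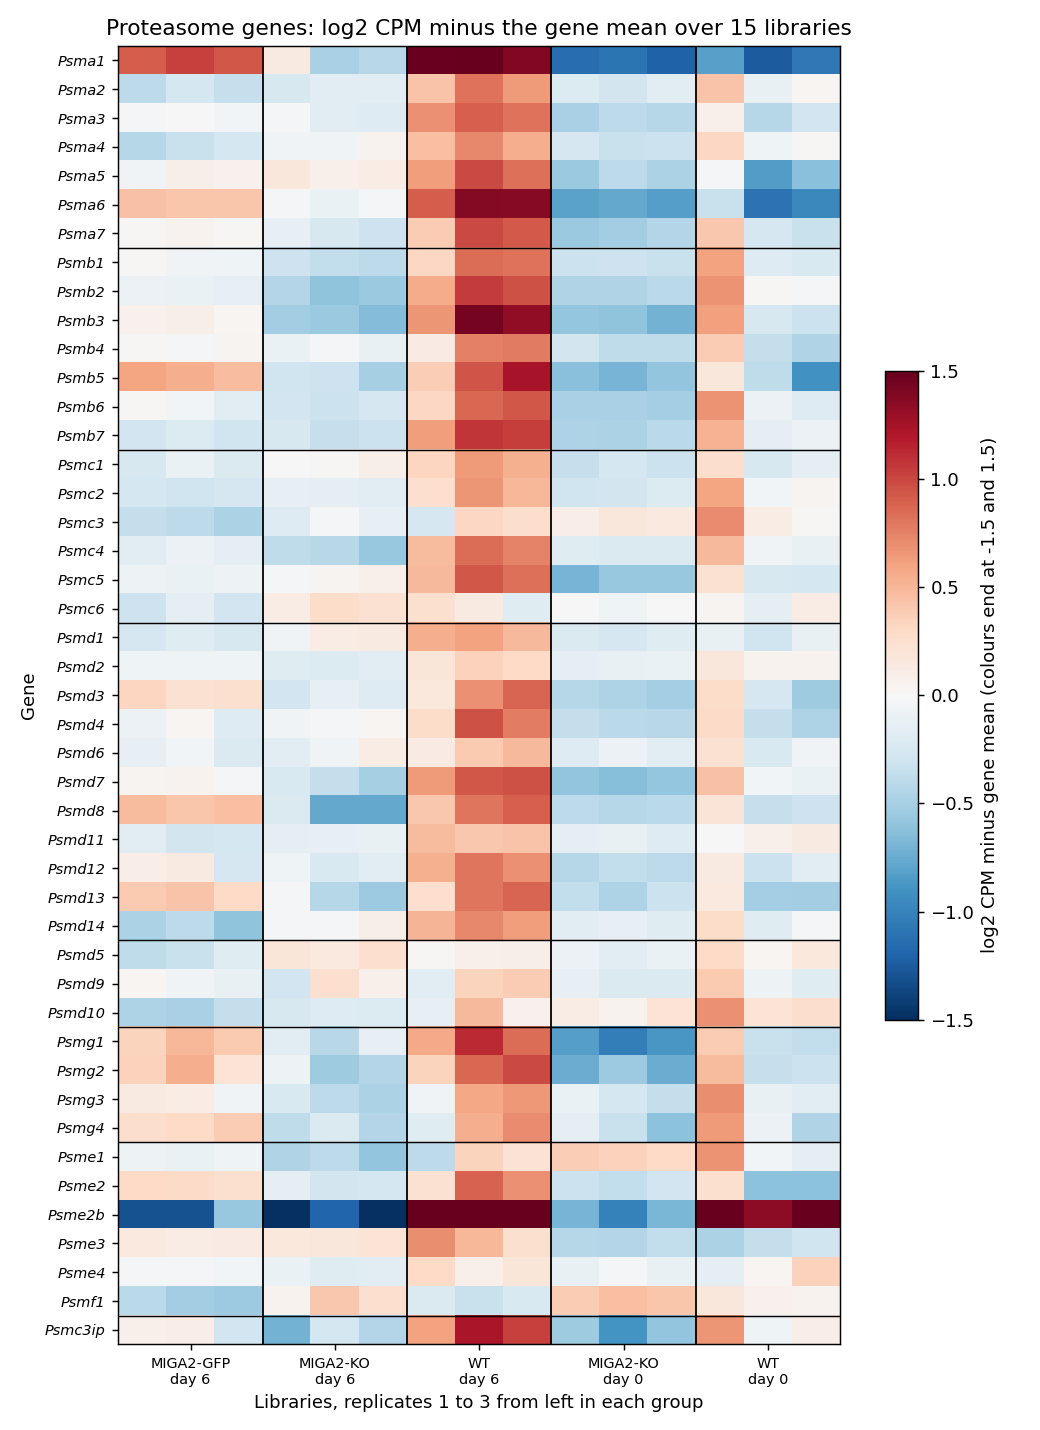
Log2 CPM of each tested member minus its mean over the 15 libraries (colour, ending at -1.5 and 1.5), with libraries in columns. The WT day 6 columns are the warmest for most genes, and WT day 0 replicate 1 is warmer than the other WT day 0 columns.

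The regulators of the core did not move together over time. At day 6, 5 of the 6 activator or inhibitor genes were lower in MIGA2-KO than in WT, beside 31.5% of all genes, and 1 was higher. All 6 log2 fold changes of MIGA2-GFP against WT were negative, and 2 were called lower, beside 18.9% of all genes. Psme1 and Psme2 encode the interferon-inducible PA28 activator, Psme3 its nuclear relative, Psme4 the PA200 activator and Psmf1 the inhibitor PI31. Psme1 had 88.98, 87.6 and 90.3 CPM in MIGA2-GFP, 69.03, 71.9 and 62.6 CPM in MIGA2-KO and 71.5, 119 and 109.7 CPM in WT at day 6, and 121, 119.7 and 115 CPM in MIGA2-KO and 149.5, 91.6 and 86.04 CPM in WT at day 0. It was lower over time in MIGA2-KO, at -0.81 ± 0.20 (adjusted p = 0.00392, edgeR), a call made in every alternative. In WT the change was -0.13 ± 0.19 (adjusted p = 0.589, edgeR), and its sign turned without either replicate 1. The difference between the lines did not pass (-0.68 ± 0.28, adjusted p = 0.0808, edgeR). At day 6 Psme1 was called lower in MIGA2-KO than in WT (-0.56 ± 0.20, adjusted p = 0.0240, edgeR). The libraries overlapped there, and the call did not hold in every alternative.

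Psme2 had 145, 132 and 133 CPM at day 6 and 127, 123 and 130.4 CPM at day 0 in MIGA2-KO, where it did not pass (0.11 ± 0.20, adjusted p = 0.708, edgeR). In WT it had 186, 293 and 257 CPM at day 6 and 188, 104 and 104 CPM at day 0, and replicate 1 of day 0 lay above replicate 1 of day 6. It was called higher over time in WT (0.90 ± 0.20, adjusted p = 0.00117, edgeR), and the difference between the lines did not pass (-0.79 ± 0.28, adjusted p = 0.0504, edgeR). At day 6 it was lower in MIGA2-KO than in WT (-0.84 ± 0.20, adjusted p = 0.00228, edgeR), but the GC content and length correction turned this to 0.11. In MIGA2-GFP it had 195, 195 and 188 CPM, and the difference from WT was -0.35 ± 0.20 (adjusted p = 0.184, edgeR).

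Psme3 was higher over time in both lines. It had 100.3, 101 and 104 CPM at day 6 and 67.1, 66.4 and 69.8 CPM at day 0 in MIGA2-KO (0.59 ± 0.10, adjusted p = 0.000343, edgeR), and 146, 127 and 107 CPM at day 6 and 64.7, 70.6 and 73.4 CPM at day 0 in WT (0.87 ± 0.10, adjusted p = 3.94e-06, edgeR). No library overlapped between the days in either line. At day 6 it was lower than in WT in MIGA2-KO (-0.31 ± 0.10, adjusted p = 0.0172, edgeR) and in MIGA2-GFP (100.00, 97.6 and 97.8 CPM, -0.36 ± 0.10, adjusted p = 0.0152, edgeR). Psme4 had 68.2, 68.9 and 67.8 CPM in MIGA2-GFP, 64.9, 61.3 and 62.4 CPM in MIGA2-KO and 85.7, 73.6 and 78.8 CPM in WT at day 6, and 64.5, 68.8 and 64.5 CPM in MIGA2-KO and 62.95, 71.1 and 88.8 CPM in WT at day 0. Its difference between MIGA2-KO and WT at day 6 passed, at -0.34 ± 0.11 (adjusted p = 0.0193, edgeR). This call of Psme4 and the calls of Psme3 against WT at day 6 did not hold in every alternative.

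The inhibitor gene Psmf1 (chr2:151715812-151744186, minus strand) was the one member called higher in MIGA2-KO than in WT. It had 36.6, 33.7 and 33.1 CPM in MIGA2-GFP, 50.1, 64.02 and 57.7 CPM in MIGA2-KO and 41.8, 38.4 and 41.4 CPM in WT at day 6, and 63.3, 66.4 and 64.9 CPM in MIGA2-KO and 54.4, 50.8 and 50.1 CPM in WT at day 0. MIGA2-KO lay above WT on both days with no overlap, while MIGA2-GFP lay below WT without passing (-0.23 ± 0.10, adjusted p = 0.0894, edgeR). The inhibitor fell over time in WT (-0.35 ± 0.10, adjusted p = 0.00656, edgeR). For MIGA2-KO against WT the log2 fold change was 0.33 ± 0.10 before induction (adjusted p = 0.0208, edgeR) and 0.50 ± 0.10 after it (adjusted p = 0.000725, edgeR). The last of these held in every alternative, and the other 2 did not.

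Psme2b had the largest difference between lines of any member. It had 0.683, 0.687 and 1.14 CPM in MIGA2-GFP, 0.435, 0.742 and 0.348 CPM in MIGA2-KO and 5.24, 8.38 and 8.25 CPM in WT at day 6. At day 0 it had 1.04, 0.841 and 1.05 CPM in MIGA2-KO and 6.27, 4.30 and 5.10 CPM in WT. All WT libraries of both days lay above all others, with log2 fold changes of -2.40 ± 0.28 (adjusted p = 3.72e-05, edgeR) for MIGA2-KO against WT at day 0, -3.81 ± 0.32 (adjusted p = 3.64e-07, edgeR) for it at day 6 and -3.13 ± 0.30 (adjusted p = 8.31e-06, edgeR) for MIGA2-GFP against WT. Psme2b is a single-exon gene of 837 bases on chromosome 11 that matches Psme2 over 794 bases at 99.4% identity, so its counts and those of Psme2 could be exchanged by the read assignment. For Psme2 the log2 fold change was -0.05 for MIGA2-KO against WT at day 0 (not called), -0.84 at day 6 (called lower) and -0.35 for MIGA2-GFP against WT (not called).

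**Figure D5:**
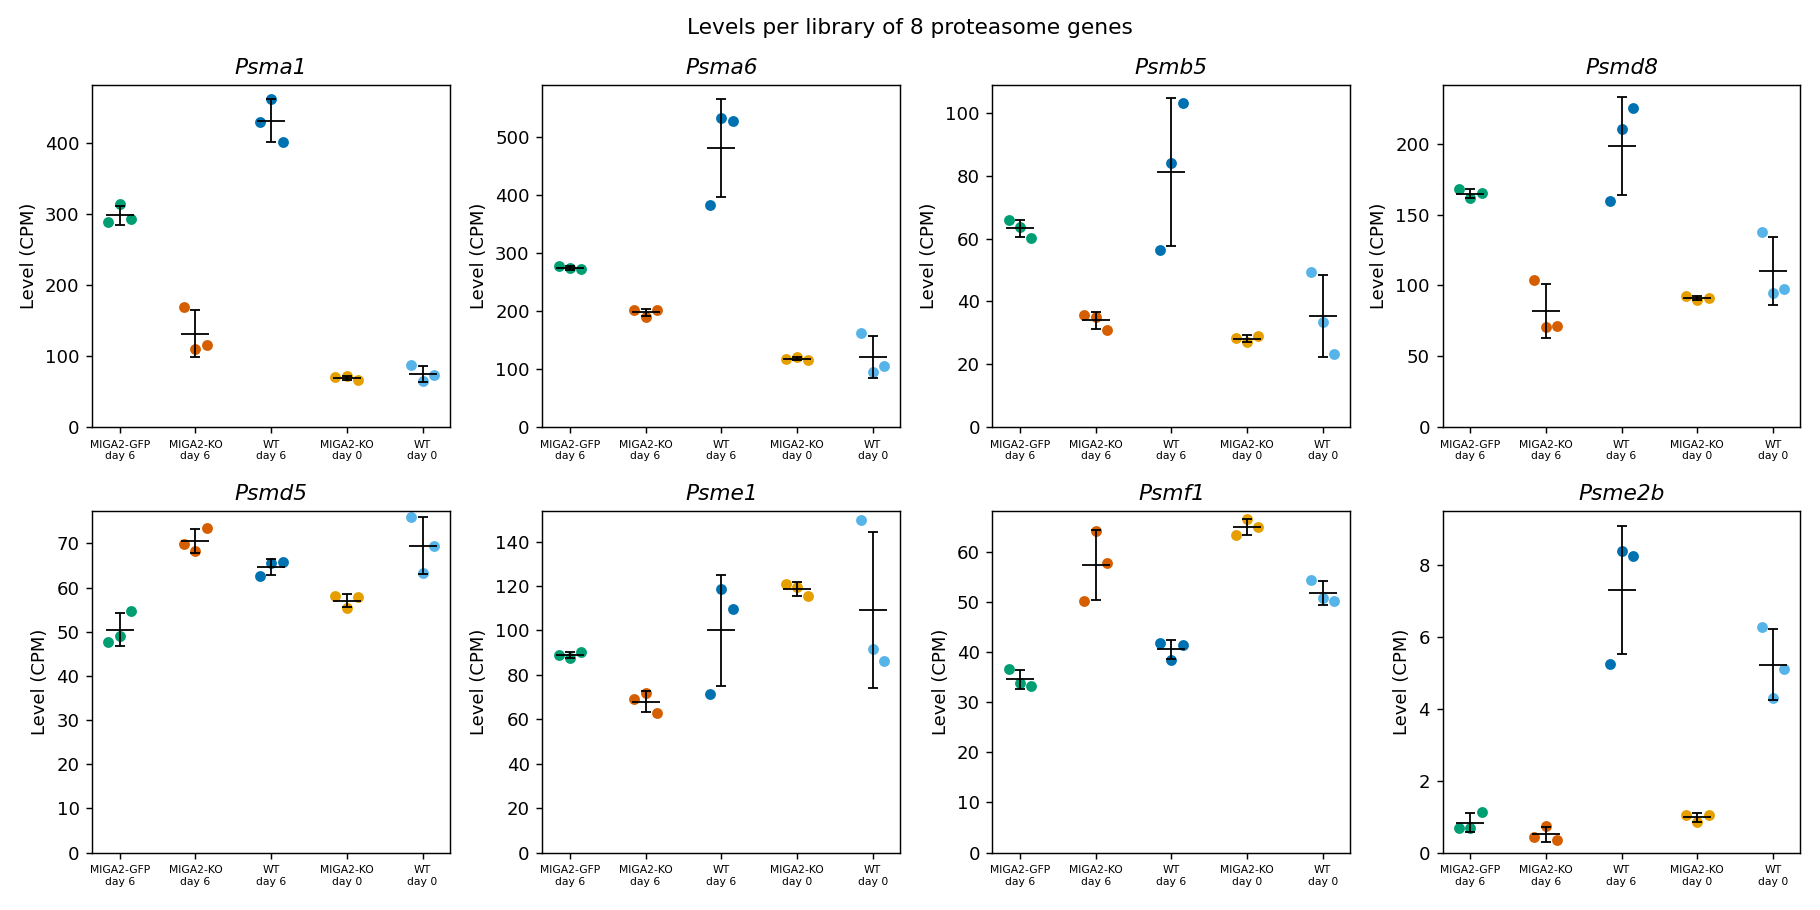
Level in CPM of 8 proteasome genes in each library (points), with group means and SD (bars, n = 3), by group from MIGA2-GFP at day 6 to WT at day 0. Psma1 and Psma6 are highest in WT at day 6, Psmf1 is higher in MIGA2-KO than in WT on both days, and Psme2b is at 4.30 CPM or more in the WT libraries and at 1.14 CPM or less in the rest.

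Genes that work with the proteasome but lie outside the members were also counted. Of 31 listed partners, 30 were tested. In WT over time 15 were higher and 3 lower (50% and 10%), beside 31.7% and 33.1% of all genes (edgeR). Over time the MIGA2-KO line had 7 and 2 (23.3% and 6.67%), beside 23.3% and 21%. Against WT this line had 5 and 3 before induction (16.7% and 10%), beside 16.1% and 17.7%. After induction it had 7 and 14 (23.3% and 46.7%), beside 29.2% and 31.5%. MIGA2-GFP against WT had 5 and 12 (16.7% and 40%), beside 16.5% and 18.9%. The shares called higher were thus close to background for the MIGA2-KO line over time and before induction, and for MIGA2-GFP. Pomp, which guides core assembly with Psmg1 to Psmg4, had 124, 130.003 and 120.4 CPM in MIGA2-GFP, 112, 98.1 and 95.1 CPM in MIGA2-KO and 167, 242 and 219 CPM in WT at day 6, and 95.1, 106 and 98.6 CPM in MIGA2-KO and 149, 92.9 and 94.4 CPM in WT at day 0. It was higher over time in WT (0.90 ± 0.17, adjusted p = 0.000299, edgeR), and lower than in WT at day 6 in MIGA2-KO (-1.04 ± 0.17, adjusted p = 0.000143, edgeR) and in MIGA2-GFP (-0.74 ± 0.17, adjusted p = 0.00444, edgeR).

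Nfe2l1, which encodes the factor NFE2L1, had 573, 537 and 553 CPM in MIGA2-GFP, 474, 465 and 449.8 CPM in MIGA2-KO and 363, 304 and 353 CPM in WT at day 6, and 463, 479.96 and 481 CPM in MIGA2-KO and 324, 449.8 and 409 CPM in WT at day 0. Its mRNA was higher than in WT at day 6 in MIGA2-KO (0.44 ± 0.11, adjusted p = 0.00341, edgeR) and in MIGA2-GFP (0.70 ± 0.11, adjusted p = 0.000412, edgeR), where subunit genes were lower. Ddi2, the protease that activates the factor, was higher over time in MIGA2-KO (0.76 ± 0.13, adjusted p = 0.0003, edgeR) and in WT (1.02 ± 0.13, adjusted p = 8.66e-06, edgeR). Nfe2l2, the related oxidative stress factor, was higher in MIGA2-KO than in WT at day 6 (1.33 ± 0.13, adjusted p = 1.80e-06, edgeR). It was already higher at day 0 (0.67 ± 0.13, adjusted p = 0.0015, edgeR). Over time Nfe2l2 was lower in WT (-0.72 ± 0.13, adjusted p = 0.000224, edgeR) and not called in MIGA2-KO (-0.07 ± 0.13). These are mRNA levels, and the activity of the proteins was not measured.

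The immunoproteasome genes encode subunits that replace the catalytic ones after interferon, and Psmb8 and Psmb9 fell with differentiation. Psmb8, the counterpart of Psmb5, had 1.48, 2.14 and 2.70 CPM at day 6 and 8.43, 6.73 and 7.95 CPM at day 0 in MIGA2-KO, and 1.18, 0.877 and 1.84 CPM at day 6 and 11.5, 5.56 and 5.76 CPM at day 0 in WT. Its log2 fold change over time was -1.87 ± 0.32 in MIGA2-KO (adjusted p = 0.000229, edgeR) and -2.53 ± 0.34 in WT (adjusted p = 1.12e-05, edgeR). Psmb9, the counterpart of Psmb6, changed by -1.94 ± 0.43 in MIGA2-KO and -1.89 ± 0.42 in WT, and Psmb10, the counterpart of Psmb7, did not pass in either line.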

How the data were processed

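RNA from 5 groups of 3 libraries of 3T3-L1 cells was purified on columns and made into stranded TruSeq libraries, per the labels' protocols. Per the submitters' processing notes, the tools named are bcl2fastq 2.19, Trimmomatic, STAR 2.5.4b, featureCounts and edgeR, with the genome build GRCm38.p5. The sources used here do not give the annotation or how featureCounts treated strand and multi-mapping reads. The deposited files hold raw read counts per gene without normalization. Identifiers were matched to GENCODE vM21 (GRCm38) for 25587 of 25700 genes, leaving 113 without a symbol. Of the 46 members, 13 share exon bases with another gene (10 of them with one on the opposite strand) and 12 have a copy at 97% identity or more over at least 100 bases, so their counts are less certain.

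Counts were tested with edgeR 4.0.16 in R 4.3.3. Genes were kept by filterByExpr (minimum count 10, minimum total 15), which left 12279. With TMM scaling, a quasi-likelihood model holding 1 coefficient for each group was fitted to all 15 libraries (biological coefficient of variation 15.96%). Tests were two-sided, with Benjamini-Hochberg adjustment over all genes tested and a threshold of 0.05. The value after ± is the SE of a log2 fold change implied by the F test. The code was checked on simulated counts. Since no label states that replicates were separate cultures, the p-values reflect the spread among these libraries alone, which may be technical. Alternatives were RLE scaling, plain library totals, no filter, DESeq2 1.42.0, only the groups compared, a replicate block, a GC content and length correction with mgcv 1.9.3, and leaving out libraries.

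The members and gene lists were chosen with earlier results of these data known. Values per library are given for the catalytic subunits, the activators and the inhibitor, and for the largest change per role over time in each line and against WT at day 6. Full statistics are given for up to 3 members per comparison and direction with the smallest adjusted p. Values of other members, such as Psmb2 and Psmg1 at day 0, were added after they were seen.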

Additional observations from a re-analysis of the deposited data

Results flagged for a closer look

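The change over time differed between the lines, by the test of the difference itself, for 16 members. Values are the log2 change in MIGA2-KO minus that in WT (edgeR, adjusted p under 0.05). Among alpha subunits the difference was -1.60 for Psma1, -1.25 for Psma6, -0.70 for Psma3 and -0.68 for Psma5. Among beta subunits it was -1.05 for Psmb3, -0.93 for Psmb5, -0.71 for Psmb2 and -0.65 for Psmb7. Psmc4 was the ATPase gene, at -0.81. Non-ATPase genes differed by -1.01 (Psmd8), -0.87 (Psmd13), -0.54 (Psmd12), -0.43 (Psmd1) and -0.34 (Psmd11). Psme2b differed by -1.41, with low counts. Psmd5 differed in the other direction, by 0.41.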

How the results depend on the processing

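Counts under the alternatives, here and above, are of members alone. The share of all genes called in each alternative is not given beside them, so a changed count need not be particular to members. RLE scaling and DESeq2 kept every count of members within 1.5 times that reported. On plain library totals the median of all genes moved to -0.15 for MIGA2-KO against WT at day 0, 0.24 at day 6, 0.18 for MIGA2-GFP and 0.39 for the difference between lines. There, WT over time had 18 higher and 7 lower, MIGA2-KO against WT 0 higher and 25 lower at day 0 and 3 higher at day 6, and the difference between lines 3 higher and 3 lower. Fitting only the groups compared gave 0 lower in WT over time, 21 higher and 4 lower in MIGA2-KO over time, 6 lower at day 0, and 0 higher and 9 lower for the difference. The GC content and length correction gave 5 lower in WT and 6 lower in MIGA2-KO over time, 5 higher at day 0, 3 higher and 26 lower at day 6, 1 higher in MIGA2-GFP, and 0 higher for the difference. Without a filter the difference had 0 higher. Without the 3 libraries that stood apart, MIGA2-KO over time had 22 higher and 5 lower, day 0 5 higher, day 6 2 higher, and the difference 2 higher and 38 lower. The cause was not tested.

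Leaving out 1 library at a time gave 29 to 37 higher and 1 to 2 lower in WT over time, 5 to 8 higher and 1 to 2 lower in MIGA2-KO over time, 0 to 1 higher and 7 to 19 lower at day 0, 1 higher and 36 to 39 lower at day 6, 0 higher and 27 to 38 lower in MIGA2-GFP, and 0 to 1 higher and 6 to 32 lower for the difference. Without MIGA2-KO day 0 replicate 2 there were 5 higher over time in MIGA2-KO and 7 lower at day 0. For the difference there were 32 lower without WT day 0 replicate 1, 24 without WT day 6 replicate 1, 11 without MIGA2-KO day 6 replicate 1, and 6 to 8 without any other library. Same-numbered libraries did not deviate together (30 pairs, correlation -0.723 to 0.125, 2 over 0.1, and 5 of 15 libraries closest to their own number), so the numbers were not taken to pair samples. With the replicate block the difference between lines had 8 members lower, and the other counts moved by less than 1.5 times.

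Signs turned for some named genes. Under the GC content and length correction this was so for Psmb6 over time in WT (-0.11), in MIGA2-KO (-0.000303) and in the difference (0.11), for Psme2 and Psme4 over time in MIGA2-KO (-0.10 and 0.057), for Psmb5, Psme2 and Psme3 at day 0 (0.15, 0.43 and 0.085), for Psme2 in MIGA2-KO at day 6 (0.11), and for Psmb5, Psme1, Psme2 and Psmg1 in MIGA2-GFP (0.12, 0.028, 0.18 and 0.058). On plain totals it was so for Psme4 in WT over time (-0.30), Psme1 in MIGA2-GFP (0.019), and Psmb6, Psme3 and Psme4 in the difference (0.033, 0.091 and 0.21). Without the 3 libraries, Psme1, Psme4 and Psmd10 turned in WT over time (0.38, -0.052 and 0.072) and Psme2 at day 0 (0.29). Leaving out 1 library gave -0.28 to 0.17 for Psme1 and -0.013 to 0.24 for Psme4 in WT over time, and at day 0 -0.021 to 0.42 for Psme1, -0.20 to 0.29 for Psme2 and -0.086 to 0.0049 for Psme3. Of these, Psmb6 in WT and Psme2 in MIGA2-KO at day 6 had passed the test. Low counts limit Psme2b, Psmb8 and Psmb9, and Psma8 and Psmb11 could not be tested.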
